A study of Mus musculus with 10 samples.

Results

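Mature granulocytes were compared with pre-B cells from the bone marrow of the same pools of mice, by RNA sequencing. The comparison took in 6 of the 10 libraries of the series, which were 2 of mature granulocytes, 2 of large pre-B cells and 2 of small pre-B cells, chosen by the cell type in their labels. The mice were C57bl/6, 4 weeks old. Control pools carried Dyrk1a flox/flox without the Mx1-Cre transgene (Mx1-Cre-), and pools called CKO were labelled Dyrk1a -/-, Mx1-Cre+. Mx1-Cre is driven by an interferon-responsive promoter. The labels do not state how it was induced, and the control mice carried no Cre. Each population was 1 library per genotype from 2 pooled mice, and the populations of a genotype came from the same pool. The p-values below therefore measure the spread between these libraries and not between animals. Genotype was a block in the fit, so that each granulocyte library was set against the pre-B libraries of its own genotype.

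Granulocytes, mostly neutrophils in bone marrow, are short-lived phagocytes. During maturation they fill their granules in waves. Primary granules, made at the promyelocyte stage, hold myeloperoxidase and serine proteases. Secondary and tertiary granules, made later, hold lactoferrin, cathelicidin and gelatinases. Receptors for chemokines and bacterial products come last, after division has ended. Pre-B cells are lymphoid precursors. Large pre-B cells carry a pre-B cell receptor built from an immunoglobulin heavy chain and the surrogate light chain and divide rapidly, and small pre-B cells stop dividing and recombine the light chain loci.

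Values are FPKM, a read abundance corrected for transcript length and library size, and are given in the order control, CKO. FPKM are relative within a library, and in bulk samples fewer cells of a type and less RNA per cell cannot be told apart. The 6 libraries had 9818 to 10350 genes at 1 FPKM or more. The granulocyte libraries were dominated by few genes. Their 10 most abundant genes made up 18.8% and 38.1% of the FPKM sum, against 5.53% to 7.21% in pre-B libraries. A difference is a difference of log2(FPKM + 1), which understates the change of low genes. Some abundant genes are listed at exactly 0, which can be a failed estimate. S100a8, a calcium-binding alarmin of neutrophils, was listed at 0 and 246142 FPKM in the granulocyte libraries, and Ngp, a granule protein, at 0 and 39818 FPKM. These 2 genes and the other genes listed at 0 in 1 granulocyte library were left out. S100a9, the partner of S100a8, was listed at 0 in both granulocyte libraries and at 69.4, 55.6, 208 and 152 FPKM in pre-B libraries, and Ceacam1 likewise at 0 against 9.09, 5.90, 38.8 and 19.4 FPKM. No ratio is given for them, and they are left out of the counts of their lists. Both stayed among the genes tested and were called lower. The genes called lower below include 20 that were listed at 0 in both granulocyte libraries.

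Of 11109 genes tested, 3716 were higher in granulocytes (33.5%) and 2895 were lower (26.1%), at a limma adjusted p under 0.05. The median over all genes tested was a difference of 0.07. The rises were the larger ones. Of the genes called, 515 rose and 95 fell by 16-fold or more on the log2(FPKM + 1) scale. At 256-fold the numbers were 41 and 0. Set against large pre-B cells alone, 42.6% of genes were called higher and 37.3% lower. Against small pre-B cells alone, 39.9% were called higher and 33.2% lower. The granulocyte libraries had larger FPKM sums over all genes (830006 and 1074258 FPKM, against 360394 to 431868 FPKM in pre-B libraries). Rescaling all libraries to the same FPKM sum lowers values in the granulocyte libraries. The sums used for it left out the genes listed at 0 in 1 granulocyte library, S100a8 and Ngp among them. This rescaling moved the median over all genes to -0.82 and the calls to 1875 higher and 5507 lower. Against large pre-B cells the calls became 2816 higher and 6330 lower, and against small pre-B cells 2214 and 7122. Of the 7382 genes called on that scale, 4797 were also called on the deposited scale, 4770 of them in the same direction. Without the control granulocyte library 1566 genes were called higher and 1019 lower, and without the CKO granulocyte library 1532 and 798. All 6611 genes called in the pooled comparison had the same sign against each pre-B stage. More genes passed against a single stage because the difference between large and small pre-B cells is then no longer part of the error.

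The 12 genes with the largest rise, among genes with at least 10 FPKM in the higher class and no 0 in any library, were Retnlg, Ltf, Lcn2, Mmp9, Mmp8, Camp, Ifitm6, Cd177, Pglyrp1, Fpr2, Lrg1 and Chil3, listed in the files as Chi3l3. Most of them encode granule or secreted proteins. Retnlg, a resistin-like secreted protein, stood at 19832 and 18255 FPKM in granulocytes and at 4.10, 4.41, 16.5 and 7.89 FPKM in large and then small pre-B cells (log2 difference 11.20, SE 0.54, limma adjusted p = 0.000115). Its highest pre-B value, in control small pre-B cells, was a trace of either granulocyte value, and the classes did not overlap. The 12 genes with the largest fall included Vpreb3, Pou2af1, Cd79a, Chchd10, Vpreb1, Cd79b, Igll1, Fcrla, Spib, Blnk and Myl4. Of those named, all but Chchd10, a mitochondrial protein, and Myl4, a myosin light chain, are known for roles in B-lineage cells. Chchd10 stood at 1.66 and 2.36 FPKM in granulocytes and at 245, 286, 399 and 308 FPKM in pre-B cells (log2 difference -6.68, SE 0.25, limma adjusted p = 6.62e-05). Myl4 stood at 0.918 and 1.05 FPKM against 224, 110.3, 175 and 103 FPKM (log2 difference -6.21, SE 0.27, limma adjusted p = 9.23e-05). For both genes every pre-B library lay far above either granulocyte library.

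The secondary and tertiary granule genes had the largest median difference of the 34 lists. All 17 members counted, of 20 listed, were called higher in granulocytes, with a median difference of 9.38 beside 0.07 over all genes, where 33.5% were called higher. Of the other listed members, Ngp and Ceacam1 are among the genes with a 0 described above and Wfdc21 was listed at 0 in all 6 libraries. Ltf, the iron-binding lactoferrin, stood at 14239.7 and 11976 FPKM in granulocytes, 3.99 and 2.61 FPKM in large pre-B cells and 14.2 and 10.6 FPKM in small pre-B cells (log2 difference 10.77, SE 0.64, limma adjusted p = 0.000209). Camp, the antimicrobial cathelicidin, stood at 22665 and 18472 FPKM, 9.97 and 5.50 FPKM and 33.4 and 21.99 FPKM (log2 difference 10.37, SE 0.68, limma adjusted p = 0.000275). The collagenase Mmp8 stood at 3531 and 3162 FPKM, 1.34 and 0.747 FPKM and 2.13 and 1.72 FPKM (log2 difference 10.43, SE 0.25, limma adjusted p = 2.81e-05). In each of these 3 genes the pre-B values were a trace of the granulocyte values, and the trace was higher in both small than in both large pre-B libraries. Lyz2, a lysozyme, and Hp, haptoglobin, had the opposite order. Lyz2 stood at 24653 and 20368 FPKM in granulocytes, 156 and 56.6 FPKM in large and 32.4 and 25.5 FPKM in small pre-B cells. Hp stood at 2800.1 and 2503 FPKM, 20.3 and 8.45 FPKM and 3.20 and 2.24 FPKM. Over the 17 genes, the median level in a pre-B library as a share of the granulocyte library of the same pool was 0.0574% and 0.0448% in large and 0.104% and 0.0895% in small pre-B cells.

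The primary granule genes behaved differently. Of 10 members 5 were called higher than in pre-B cells as a whole and none lower, with a median of 3.13. Over all genes 33.5% were called higher and 26.1% lower. Mpo, myeloperoxidase, stood at 489 and 209 FPKM in granulocytes, 365 and 159 FPKM in large pre-B cells and 6.48 and 4.57 FPKM in small pre-B cells. Elane, neutrophil elastase, stood at 458 and 207 FPKM, 251 and 115 FPKM and 6.87 and 3.72 FPKM. Prtn3, proteinase 3, stood at 325 and 109 FPKM, 183 and 67.1 FPKM and 4.28 and 1.49 FPKM. In all 3 genes the large pre-B library of the control pool lay above the granulocyte library of the CKO pool, so the classes overlapped, while both small pre-B libraries lay far below. Mpo did not pass in the pooled comparison (log2 difference 3.02, SE 2.01, limma adjusted p = 0.242) or against large pre-B cells (log2 difference 0.40, SE 0.22, limma adjusted p = 0.146), but was higher than in small pre-B cells (log2 difference 5.63, SE 0.22, limma adjusted p = 3.29e-05). Elane passed against large (log2 difference 0.85, SE 0.14, limma adjusted p = 0.00271) and small pre-B cells (log2 difference 5.66, SE 0.14, limma adjusted p = 1.3e-05), and not against both together (limma adjusted p = 0.179). Against large pre-B cells 7 of 10 members were called higher, against small pre-B cells 9 of 10, beside 42.6% and 39.9% over all genes. Rescaling to the same library sum turned the differences of Elane and Prtn3 against large pre-B cells to -0.08 and -0.17, and left 4 members called higher and 1 lower there. In the pooled comparison it left 3 called higher and 1 lower.

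The members that were called in the pooled comparison were Ctsd, Serpinb10, Prss57, Ms4a3 and Gusb. Serpinb10 was listed as Serpinb10-ps and matched by a RefSeq synonym. Ctsd, the aspartic protease cathepsin D, stood at 908 and 803 FPKM in granulocytes and 37.1, 38.98, 32.7 and 38.2 FPKM in pre-B cells (log2 difference 4.51, SE 0.16, limma adjusted p = 5.69e-05). Its pre-B values were alike at both stages, unlike those of Mpo. Ctsc, the protease that activates the granule serine proteases, stood at 26.6 and 15.3 FPKM against 32.4, 25.3, 19.02 and 18.05 FPKM and did not pass (log2 difference -0.18, SE 0.30, limma adjusted p = 0.625). As a share of the granulocyte library of the same pool, the median over the 10 genes was 55.5% and 58.5% in large pre-B cells but 1.41% and 2.01% in small pre-B cells. The ratio of Mpo to Ltf, a primary over a secondary granule transcript, was 0.0343 and 0.0174 in granulocytes, 91.7 and 61.1 in large pre-B cells, and 0.456 and 0.432 in small pre-B cells. It was therefore lowest in the mature cells and highest in large pre-B libraries. The large pre-B libraries also held monocyte and erythroid transcripts, given below, whose part in these values was not tested.

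**Figure D1:**
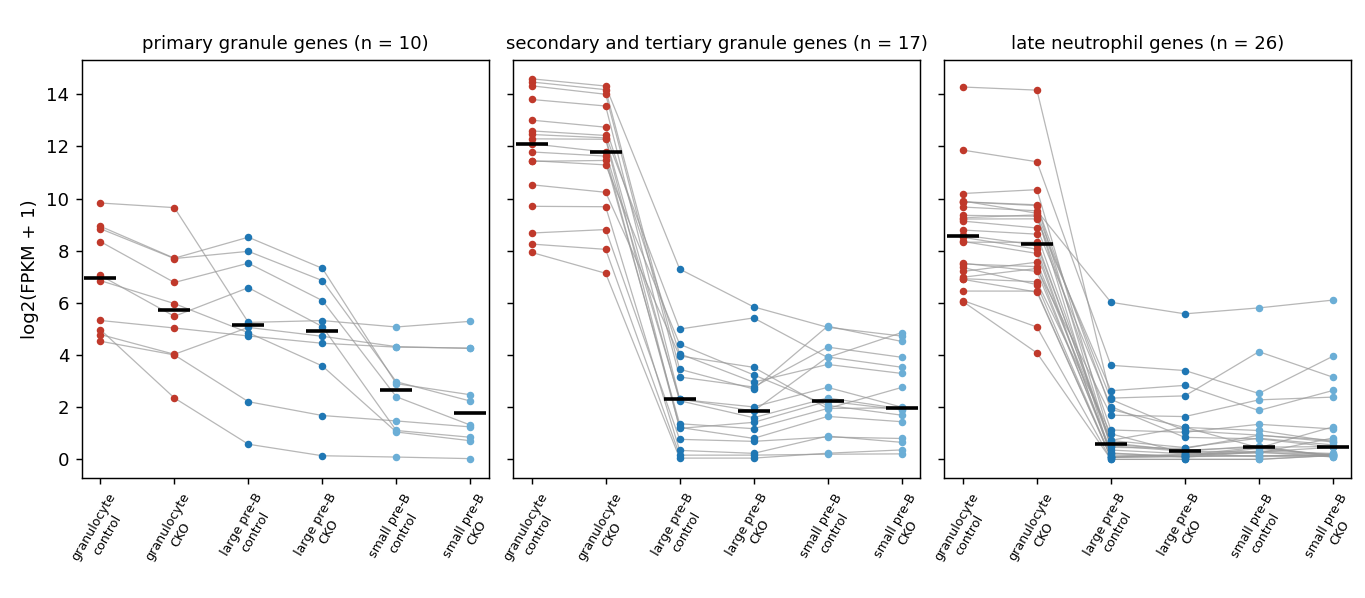
log2(FPKM + 1) of each counted member of 3 gene lists (y axis), without those listed at 0 in a granulocyte library, in the 6 libraries (x axis); grey lines join a gene, colours mark the population and black bars the median. The median of the primary granule genes steps down from granulocytes to large and again to small pre-B cells, though Ctsc is not lower in large pre-B cells and Ctsd is alike at both stages and the first step is absent under rescaling to the same sum (median difference -0.13), while secondary granule and late neutrophil genes drop at once and stay low in all 4 pre-B libraries.

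The promoters of these genes are shown because the members of a list share short sequence matches. They are RefSeq windows on GRCm38.p6, from 250 bases before to 50 after the annotated start, printed 5′ to 3′ on the gene's strand. Capitals mark matches, on either strand, to GAGGAAG (bound by PU.1), TTNNGNAA (bound by C/EBP factors), CCCNNGGGA (bound by EBF1) or CAGGTG (an E-box, bound by E proteins such as the product of Tcf3), and no matches overlap. Positions count from that start as 0. It is the start given for the window and can differ from the listed start of the gene, as in Prtn3, listed from 79874476. Mpo (chr11:87793534-87793833, plus strand), Elane (chr10:79886062-79886361, plus strand) and Prtn3 (chr10:79879417-79879716, plus strand) are primary granule genes with GAGGAAG. Elane and Prtn3 are neighbours on chromosome 10, and the match begins at -85 in Elane and -95 in Prtn3.
Mpo: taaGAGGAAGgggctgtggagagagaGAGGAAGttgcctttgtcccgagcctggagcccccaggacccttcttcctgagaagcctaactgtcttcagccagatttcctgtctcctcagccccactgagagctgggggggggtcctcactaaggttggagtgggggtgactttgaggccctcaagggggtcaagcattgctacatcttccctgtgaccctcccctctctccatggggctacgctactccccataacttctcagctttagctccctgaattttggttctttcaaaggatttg
Elane: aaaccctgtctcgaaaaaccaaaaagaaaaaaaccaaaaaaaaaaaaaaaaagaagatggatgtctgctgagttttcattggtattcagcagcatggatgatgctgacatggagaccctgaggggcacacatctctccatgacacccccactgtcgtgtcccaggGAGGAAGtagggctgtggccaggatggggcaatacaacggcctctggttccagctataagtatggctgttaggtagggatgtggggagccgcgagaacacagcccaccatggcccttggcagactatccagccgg
Prtn3: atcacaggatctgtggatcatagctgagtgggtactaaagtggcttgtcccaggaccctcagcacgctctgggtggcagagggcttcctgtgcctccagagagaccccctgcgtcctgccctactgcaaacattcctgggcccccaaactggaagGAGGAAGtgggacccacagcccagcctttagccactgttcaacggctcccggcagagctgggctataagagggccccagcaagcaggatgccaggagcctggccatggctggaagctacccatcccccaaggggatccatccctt
Ltf (chr9:111019042-111019341, plus strand) and Mmp8 (chr9:7558179-7558478, plus strand) are secondary granule genes, each with C/EBP matches. In Ltf these begin at -217 and -75, with an E-box at -113 and an EBF1 match at -22. In Mmp8 they begin at -151 and -19, with a GAGGAAG on the other strand at -220.
Ltf: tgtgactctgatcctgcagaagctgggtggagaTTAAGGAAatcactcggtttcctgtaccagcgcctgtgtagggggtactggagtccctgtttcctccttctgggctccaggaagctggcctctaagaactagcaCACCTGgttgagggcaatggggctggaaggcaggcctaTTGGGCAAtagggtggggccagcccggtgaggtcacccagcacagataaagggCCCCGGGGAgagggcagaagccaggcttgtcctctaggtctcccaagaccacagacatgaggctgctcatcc
Mmp8: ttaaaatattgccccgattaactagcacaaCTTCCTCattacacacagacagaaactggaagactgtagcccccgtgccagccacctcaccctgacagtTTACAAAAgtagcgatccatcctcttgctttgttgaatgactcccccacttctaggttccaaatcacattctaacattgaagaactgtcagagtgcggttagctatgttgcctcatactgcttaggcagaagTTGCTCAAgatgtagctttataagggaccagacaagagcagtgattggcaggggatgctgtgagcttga
Igll1 (chr16:16863936-16864235, minus strand) and Vpreb1 (chr16:16869206-16869505, minus strand), neighbours on chromosome 16, encode the surrogate light chain. Each has an E-box, beginning at -8 in Igll1 and -88 in Vpreb1, where GAGGAAG on the other strand follows at -82.
Igll1: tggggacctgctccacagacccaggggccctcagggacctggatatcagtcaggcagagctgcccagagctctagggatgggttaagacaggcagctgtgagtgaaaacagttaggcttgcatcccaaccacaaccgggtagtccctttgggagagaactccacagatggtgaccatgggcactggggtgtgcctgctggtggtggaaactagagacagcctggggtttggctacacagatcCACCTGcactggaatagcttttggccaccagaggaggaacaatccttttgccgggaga
Vpreb1: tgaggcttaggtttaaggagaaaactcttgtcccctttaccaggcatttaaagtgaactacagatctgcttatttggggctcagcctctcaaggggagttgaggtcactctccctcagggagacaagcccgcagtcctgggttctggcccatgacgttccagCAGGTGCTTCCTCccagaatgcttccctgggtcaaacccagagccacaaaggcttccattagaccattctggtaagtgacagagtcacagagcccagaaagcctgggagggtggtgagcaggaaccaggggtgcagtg
GAGGAAG was present in 6 of the 9 primary granule genes in the promoter table (66.7%), 29.4% of 17 secondary granule genes, 42.9% of 14 pre-B cell receptor genes and 15.4% of all 27025 genes. The C/EBP motif was present in 14 of 17 secondary granule genes (82.4%), 22.2% of primary granule genes and 44.1% of all genes. It was also present in 58.3% of late neutrophil genes and 50% of B-lineage transcription factors. CAGGTG was present in 10 of 14 genes listed for pre-B cell receptor signalling (71.4%), 17.6% of secondary granule genes and 22.6% of all genes. Among B-lineage transcription factors its share was 12.5%. The EBF1 motif was present in 7.14% of the pre-B cell receptor genes and 7.48% of all genes. These shares are descriptions of letters in a window, without a test, and do not show binding.

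Genes of late neutrophils were higher in granulocytes in all 26 members counted, of 28 listed, beside 33.5% over all genes. Their median was 7.91, leaving out S100a8 and S100a9 for their 0 values. Cxcr2, a chemokine receptor for release into blood, stood at 938 and 866 FPKM in granulocytes and at 0.377, 0.337, 0.894 and 0.663 FPKM in pre-B cells (log2 difference 9.18, SE 0.21, limma adjusted p = 2.81e-05). Csf3r, the G-CSF receptor, stood at 935 and 848 FPKM against 2.77, 1.33, 1.15 and 0.606 FPKM (log2 difference 8.57, SE 0.31, limma adjusted p = 6.29e-05). Il1b, an inflammatory cytokine, stood at 443 and 396 FPKM against 0.492, 0.278, 0.381 and 0.109 FPKM (log2 difference 8.33, SE 0.16, limma adjusted p = 2.81e-05). These 3 genes were below 3 FPKM in every pre-B library. Of 13 surface genes of granulocytes 12 were higher, with a median of 6.27. Itgam, the CD11b integrin chain, stood at 1423 and 1253 FPKM against 4.51, 2.08, 10.8 and 6.50 FPKM (log2 difference 7.75, SE 0.49, limma adjusted p = 0.000242). Cd24a, a glycoprotein present on both lineages, stood at 1505 and 1493 FPKM against 1328, 989, 1040.2 and 835 FPKM and did not pass (log2 difference 0.54, SE 0.23, limma adjusted p = 0.0961).

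Machinery for killing microbes rose with few exceptions. Of 8 genes of the phagocyte NADPH oxidase, which makes superoxide, 7 were higher (median 4.53), beside 33.5% over all genes. Cybb, its catalytic subunit, stood at 1403 and 1239 FPKM in granulocytes and 11.9, 4.998, 14.2 and 18.8 FPKM in pre-B cells (log2 difference 6.74, SE 0.49, limma adjusted p = 0.00036). Ncf1, the organizer subunit, stood at 1697 and 1697 FPKM against 11.6, 9.10, 20.7 and 24.2 FPKM (log2 difference 6.71, SE 0.43, limma adjusted p = 0.000259). The proton channel Hvcn1 was the member that did not pass, with 181 and 169 FPKM against 65.00, 34.4, 139 and 70.8 FPKM (log2 difference 1.33, SE 0.46, limma adjusted p = 0.0547), and its control small pre-B library came close to the granulocytes. All 9 tested genes of eicosanoid synthesis were higher (median 4.25). Alox5, the 5-lipoxygenase that begins leukotriene synthesis, stood at 418 and 372 FPKM against 0.180, 0.144, 0.352 and 0.239 FPKM (log2 difference 8.33, SE 0.16, limma adjusted p = 2.81e-05), and its partner Alox5ap at 2340.4 and 2357 FPKM against 30.2, 29.4, 5.97 and 34.3 FPKM. Of 17 genes of pattern recognition, complement receptors and inflammasomes, 15 were higher and none lower (median 4.11). C5ar1, the receptor for complement C5a, stood at 456 and 467 FPKM against 0.104, 0.156, 0.243 and 0.204 FPKM (log2 difference 8.62, SE 0.16, limma adjusted p = 2.81e-05). Pycard, the inflammasome adaptor, stood at 27.5 and 22.5 FPKM against 18.03, 11.9, 44.6 and 23.2 FPKM and overlapped between the classes (log2 difference 0.18, SE 0.45, limma adjusted p = 0.749).

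Among transcription factors of myeloid cells 13 of 16 were higher in granulocytes and 2 lower, with a median of 4.15. Over all genes 33.5% were higher and 26.1% lower. Cebpe, which drives the secondary granule stage, stood at 454 and 458 FPKM in granulocytes, 1.49 and 0.933 FPKM in large and 0.813 and 0.356 FPKM in small pre-B cells (log2 difference 7.95, SE 0.25, limma adjusted p = 4.56e-05). Cebpa, which acts earlier in granulocyte commitment, stood at 32.4 and 32.3 FPKM in granulocytes against 5.81 and 2.73 FPKM and 0.307 and 1.26 FPKM (log2 difference 3.50, SE 0.69, limma adjusted p = 0.00903). Spi1, the gene for PU.1, stood at 878 and 827 FPKM against 46.3, 35.1, 67.6 and 45.5 FPKM (log2 difference 4.14, SE 0.24, limma adjusted p = 0.000182), so pre-B cells held it at a lower but clear level. Mxd1, a MAX partner that opposes MYC, stood at 688 and 729 FPKM against 3.59, 3.80, 9.04 and 8.97 FPKM (log2 difference 6.69, SE 0.44, limma adjusted p = 0.000268). Runx1, used in both lineages, did not pass, with 28.4 and 28.3 FPKM against 23.5, 26.6, 26.9 and 25.02 FPKM (log2 difference 0.15, SE 0.14, limma adjusted p = 0.404).

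The members that were lower in granulocytes were Irf8 and Klf4, which favour monocytes over granulocytes. Irf8 stood at 10.4 and 6.41 FPKM in granulocytes and 81.00, 82.5, 92.5 and 212 FPKM in pre-B cells (log2 difference -3.55, SE 0.48, limma adjusted p = 0.00252). The CKO small pre-B library was the highest for Irf8, and it also held the plasmacytoid dendritic cell gene Siglech at 2.25 and 41.5 FPKM in control and CKO small pre-B cells. The part of such cells in the Irf8 value was not tested, and without that library the difference in Irf8 was -3.18. Klf4 stood at 4.66 and 2.66 FPKM against 12.8, 4.99, 32.1 and 10.02 FPKM (log2 difference -1.53, SE 0.47, limma adjusted p = 0.0386), with 1 granulocyte value close to the lowest pre-B value. All 12 receptors and mediators of myeloid cytokines were higher (median 4.49), beside 33.5% over all genes. Csf2ra, a GM-CSF receptor chain, stood at 448 and 437 FPKM against 20.02, 12.2, 25.9 and 19.6 FPKM (log2 difference 4.48, SE 0.26, limma adjusted p = 0.000191).

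The B-lineage regulators formed the mirror image. Of 18 transcription factors 16 were lower in granulocytes and none higher, with a median of -4.93, beside 26.1% and 33.5% over all genes. Pax5, which holds cells in the B lineage, stood at 0.573 and 1.17 FPKM in granulocytes, 86.8 and 98.4 FPKM in large and 184 and 129 FPKM in small pre-B cells (log2 difference -6.03, SE 0.36, limma adjusted p = 0.000214). Ebf1, which acts with it, stood at 0.412 and 1.02 FPKM, 80.2 and 99.8 FPKM and 138 and 126 FPKM (log2 difference -6.02, SE 0.28, limma adjusted p = 0.000106). Both genes were near 1 FPKM or below in granulocytes, and the classes did not overlap. Tcf3, the E protein gene, fell less, from 267, 238, 400.4 and 344 FPKM in pre-B cells to 27.6 and 31.4 FPKM (log2 difference -3.33, SE 0.26, limma adjusted p = 0.000483). The members that did not pass were Ikzf1 (Ikaros), with 216 and 218 FPKM in granulocytes against 186, 145, 255 and 165 FPKM, and the ETS factor Erg, with 42.6 and 46.5 FPKM against 17.2, 53.7, 15.3 and 59.5 FPKM. In both genes the granulocyte values lay within the pre-B range.

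The list of pre-B cell receptor and signalling genes held 18, of which 12 were lower, 2 higher and 4 not called. Over all genes 26.1% were lower and 33.5% higher, so the share of higher members was below that over all genes. The receptor chains described here were lower in granulocytes. Igll1 stood at 1.63 and 2.79 FPKM in granulocytes, 282 and 462 FPKM in large and 107 and 440.0 FPKM in small pre-B cells (log2 difference -6.48, SE 0.44, limma adjusted p = 0.000293), and Vpreb1 at 1.84 and 2.35 FPKM, 253 and 415 FPKM and 132 and 418 FPKM (log2 difference -6.49, SE 0.35, limma adjusted p = 0.000155). Cd79a, the signalling chain, stood at 4.05 and 6.71 FPKM, 477 and 465 FPKM and 1239 and 675 FPKM (log2 difference -6.72, SE 0.48, limma adjusted p = 0.000346). The control small pre-B library was the lowest of the pre-B libraries for Igll1 and Vpreb1 and the highest for Cd79a. The adaptor Blnk was lower as well, at 0.990 and 1.57 FPKM against 144, 149, 237 and 211 FPKM (log2 difference -6.33, SE 0.29, limma adjusted p = 0.0001). Among the kinases, Blk, of the SRC family, was lower too, at 0.635 and 0.547 FPKM against 80.3, 31.7, 155 and 69.2 FPKM (log2 difference -5.53, SE 0.49, limma adjusted p = 0.000657), while others were not called lower. Syk stood at 254 and 254 FPKM against 177, 133, 489 and 283 FPKM (log2 difference 0.09, SE 0.53, limma adjusted p = 0.898) and Btk at 82.4 and 78.5 FPKM against 60.2, 57.04, 86.4 and 63.7 FPKM (log2 difference 0.28, SE 0.20, limma adjusted p = 0.265). Neither passed, and the granulocyte values lay within the pre-B range. Lyn, also of the SRC family, was higher in granulocytes, at 306 and 294 FPKM against 66.6, 45.2, 175 and 97.8 FPKM (log2 difference 1.81, SE 0.51, limma adjusted p = 0.03), as was the phospholipase Plcg2, at 189.6 and 198 FPKM against 66.9, 65.8, 75.6 and 60.4 FPKM (log2 difference 1.52, SE 0.15, limma adjusted p = 0.001).

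**Figure D2:**
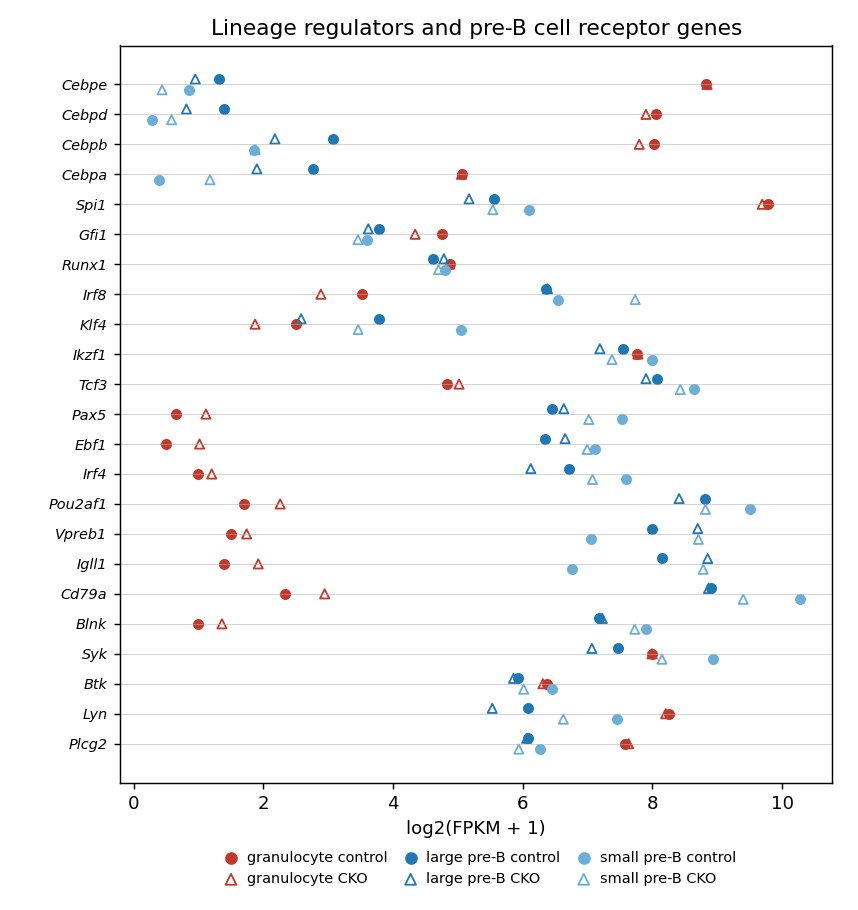
log2(FPKM + 1) (x axis) of 23 regulators and receptor genes (y axis) in granulocytes (red), large pre-B cells (dark blue) and small pre-B cells (light blue); filled circles are control and open triangles CKO libraries. Cebpe and the other C/EBP genes lie right in granulocytes, Pax5 to Blnk lie left, and Runx1, Ikzf1, Syk and Btk have granulocyte points among the pre-B points or beside them.

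Of 13 V(D)J recombination and end-joining genes 8 were lower and 2 higher (median -1.75), beside 26.1% and 33.5% over all genes. Rag1, the recombinase, stood at 3.95 and 2.30 FPKM in granulocytes, 65.4 and 79.8 FPKM in large and 538 and 367 FPKM in small pre-B cells (log2 difference -5.48, SE 1.02, limma adjusted p = 0.00749). The end-joining gene Xrcc6 (Ku70) stood at 7.91 and 5.06 FPKM against 127, 99.7, 245 and 163 FPKM (log2 difference -4.36, SE 0.34, limma adjusted p = 0.000472), while Nhej1 (XLF) was higher in granulocytes, at 18.04 and 18.8 FPKM against 6.24, 5.13, 7.58 and 6.15 FPKM (log2 difference 1.43, SE 0.18, limma adjusted p = 0.00226). Of 11 genes of IL-7 and STAT5 signalling 3 were lower and 3 higher, shares near or below those over all genes (26.1% and 33.5%). Il7r, the receptor chain, stood at 0.566 and 1.03 FPKM against 94.8, 76.97, 140.4 and 112 FPKM (log2 difference -5.87, SE 0.29, limma adjusted p = 0.000122), whereas Stat5b, which also serves the G-CSF receptor, stood at 90.8 and 89.9 FPKM against 18.9, 20.5, 21.9 and 20.8 FPKM (log2 difference 2.09, SE 0.14, limma adjusted p = 0.000299). Of 10 MHC class II genes 4 were lower and none higher (median -1.30), beside the same 26.1% and 33.5% over all genes. H2-Ab1, a class II chain, stood at 14.1 and 21.4 FPKM against 102, 68.7, 65.2 and 74.7 FPKM (log2 difference -2.08, SE 0.28, limma adjusted p = 0.00244). Cd74, the invariant chain, stood at 45.8 and 60.9 FPKM against 135, 58.5, 245 and 216 FPKM and did not pass (log2 difference -1.42, SE 0.62, limma adjusted p = 0.1).

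Transcripts of dividing cells were present in the granulocyte libraries, and the DNA replication and the mitotic genes were placed differently. Mki67, a marker of dividing cells, stood at 75.96 and 95.1 FPKM in granulocytes, 158 and 187 FPKM in large and 35.00 and 75.5 FPKM in small pre-B cells. Granulocytes lay below both large pre-B libraries and above both small ones, though the CKO small library came within a fraction of an FPKM of the control granulocytes. Of 29 tested G2-M genes 28 were lower than in large pre-B cells (log2 difference -1.01, SE 0.23, limma adjusted p = 0.0101 for Mki67), and 21 were higher than in small pre-B cells and none lower (log2 difference 0.71, SE 0.23, limma adjusted p = 0.0363 for Mki67). Over all genes 37.3% were lower than in large pre-B cells, and 39.9% were higher and 33.2% lower than in small ones. In the pooled comparison 0 of 29 passed, beside 33.5% higher and 26.1% lower over all genes. Ube2c, which helps to degrade mitotic cyclins, stood at 159 and 165 FPKM, 336 and 334 FPKM and 20.7 and 40.9 FPKM (log2 difference 2.44, SE 0.25, limma adjusted p = 0.000702 against small pre-B cells). Plk1, a mitotic kinase, stood at 52.1 and 51.5 FPKM, 111 and 106 FPKM and 9.40 and 18.6 FPKM (log2 difference 1.89, SE 0.26, limma adjusted p = 0.00196 against small pre-B cells).

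Of 30 replication and G1-S genes tested, 28 were lower than in large pre-B cells, 18 lower than in small pre-B cells with the other 12 not called, and none was called higher in either. In the pooled comparison 17 were lower. The shares lower over all genes were 37.3% against large pre-B cells, 33.2% against small pre-B cells and 26.1% in the pooled comparison. Mcm2, a subunit of the replicative helicase, stood at 18.3 and 20.3 FPKM in granulocytes, 120.0 and 127 FPKM in large and 38.7 and 81.1 FPKM in small pre-B cells (log2 difference -1.49, SE 0.26, limma adjusted p = 0.00423 against small pre-B cells). Pcna, the replication clamp, stood at 117 and 125 FPKM, 646 and 758 FPKM and 252 and 501 FPKM (log2 difference -1.55, SE 0.23, limma adjusted p = 0.00242 against small pre-B cells). Both genes were lower in each granulocyte library than in every pre-B library. E2f2, an E2F factor with a role in blood cells, stood at 133 and 147 FPKM, 128 and 128 FPKM and 151 and 139 FPKM and was not called against either stage. Set against small pre-B cells, the median difference was -0.99 for the replication genes and 0.88 for the mitotic genes, beside 0.10 over all genes. Rescaling to the same sum lowers all values of a granulocyte library by 1 factor. The medians were then -2.03 and -0.17, and 1 mitotic gene was called higher and 2 lower. The order of the lists held, the direction of the mitotic genes against small pre-B cells did not.

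**Figure D3:**
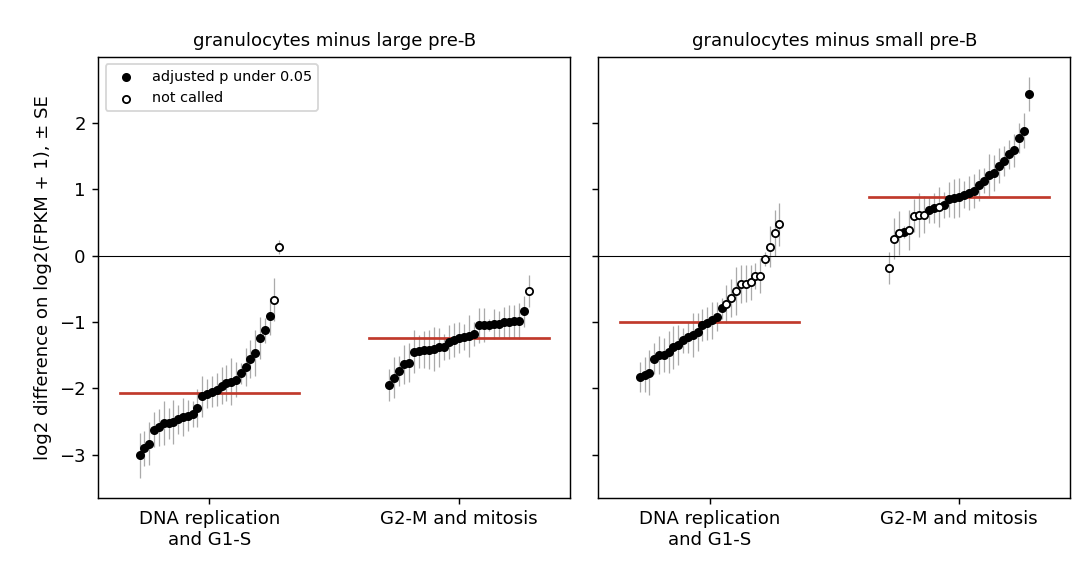
Difference in log2(FPKM + 1), ± SE, between granulocytes and large (left) or small pre-B cells (right) for each replication and G1-S gene and each G2-M gene (x axis groups, genes sorted by value); filled points passed a limma adjusted p of 0.05 and red lines are medians. Against small pre-B cells the replication genes have a median of -0.99 and the mitotic genes one of 0.88.

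The D-type cyclins and their inhibitors are where the DYRK1A kinase is known to act. Dyrk1a itself stood at 32.1 and 41.9 FPKM in granulocytes, 33.2 and 34.4 FPKM in large and 34.1 and 36.9 FPKM in small pre-B cells (log2 difference 0.08, SE 0.15, limma adjusted p = 0.66). Its total level was no lower in any CKO library than in its control. A deletion of part of the gene need not lower this value, so it does not check the genotype. Ccnd3, cyclin D3, stood at 723 and 675 FPKM, 500.2 and 329.6 FPKM and 239.9 and 162 FPKM. Both granulocyte libraries were higher than every pre-B library, yet the pooled comparison missed the threshold (log2 difference 1.30, SE 0.44, limma adjusted p = 0.0504). It passed against large (log2 difference 0.78, SE 0.15, limma adjusted p = 0.00571) and small pre-B cells (log2 difference 1.82, SE 0.15, limma adjusted p = 0.00032). Ccnd2, cyclin D2, stood at 4.02 and 3.004 FPKM, 18.9 and 37.1 FPKM and 3.75 and 17.00 FPKM and passed only against large pre-B cells (log2 difference -2.62, SE 0.52, limma adjusted p = 0.00617). Cdk4, the partner kinase, was lower in granulocytes, at 22.6 and 23.9 FPKM against 192, 226, 75.8 and 123 FPKM (log2 difference -2.56, SE 0.46, limma adjusted p = 0.00656). Cdkn2d, which encodes the inhibitor p19, was higher, at 336 and 391 FPKM against 117, 104, 68.5 and 67.6 FPKM (log2 difference 2.05, SE 0.30, limma adjusted p = 0.00348). Of 16 tested genes of this list 2 were higher and 4 lower in the pooled comparison, no larger shares than the 33.5% and 26.1% over all genes.

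Metabolic genes diverged. Of 28 genes of glucose uptake, glycolysis, the pentose phosphate pathway and glycogen, 25 were higher in granulocytes and 1 lower, with a median of 3.14. Over all genes 33.5% were higher and 26.1% lower. Pygl, glycogen phosphorylase, stood at 1199 and 1213 FPKM in granulocytes and 4.49, 3.06, 1.78 and 2.09 FPKM in pre-B cells (log2 difference 8.34, SE 0.32, limma adjusted p = 6.75e-05). Hk3, a hexokinase of myeloid cells, stood at 527 and 480.0 FPKM against 8.91, 4.25, 0.752 and 0.620 FPKM (log2 difference 7.18, SE 0.83, limma adjusted p = 0.00158). G6pdx, which makes NADPH at the entry of the pentose phosphate pathway, stood at 665 and 599 FPKM against 22.1, 15.9, 13.3 and 10.4 FPKM (log2 difference 5.31, SE 0.28, limma adjusted p = 0.000143). Gapdh, often used as a reference gene, stood at 3016 and 3021 FPKM against 905, 1014, 266 and 379.9 FPKM (log2 difference 2.45, SE 0.64, limma adjusted p = 0.0231). The exception was Pfkm, the muscle-type phosphofructokinase, at 0.528 and 0.524 FPKM against 4.52, 5.40, 2.07 and 2.88 FPKM (log2 difference -1.57, SE 0.34, limma adjusted p = 0.0123). Of 30 subunits of oxidative phosphorylation 1 was higher and 3 lower, with a median of -0.05, beside the same shares over all genes. Against large pre-B cells 2 were higher and 17 lower, beside 42.6% and 37.3% over all genes. Against small pre-B cells 14 were higher and 6 lower, beside 39.9% and 33.2%. Ndufa1, a complex I subunit, was the one that was higher in the pooled comparison, at 164 and 165 FPKM against 83.8, 78.4, 62.7 and 56.3 FPKM (log2 difference 1.23, SE 0.22, limma adjusted p = 0.00621). Under rescaling to the same sum 26 of the 30 were lower and none was higher in the pooled comparison.

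The ribosome was lower in granulocytes. Of 30 ribosomal protein genes 26 were lower and none higher, with a median of -1.41, beside 26.1% and 33.5% over all genes. Rpl32 stood at 473 and 477 FPKM in granulocytes, 1774 and 1938 FPKM in large and 1273 and 1289 FPKM in small pre-B cells (log2 difference -1.70, SE 0.27, limma adjusted p = 0.00453). Rps9 stood at 1674 and 1828 FPKM, 1521 and 1599.6 FPKM and 1477 and 1266 FPKM and did not pass (log2 difference 0.26, SE 0.22, limma adjusted p = 0.338). Of 21 ribosome biogenesis genes 17 were lower and 1 higher (median -1.83). Npm1, nucleophosmin, stood at 78.7 and 67.2 FPKM, 647 and 719 FPKM and 231 and 261 FPKM (log2 difference -2.48, SE 0.59, limma adjusted p = 0.0167). Polr1a, the large subunit of RNA polymerase I, was the one that was higher, at 37.2 and 32.3 FPKM against 8.70, 9.70, 6.86 and 5.41 FPKM (log2 difference 2.07, SE 0.26, limma adjusted p = 0.00206), while its partner subunit Polr1b was lower, at 1.70 and 1.08 FPKM against 9.83, 11.8, 3.94 and 4.46 FPKM (log2 difference -1.72, SE 0.49, limma adjusted p = 0.0305).

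**Figure D4:**
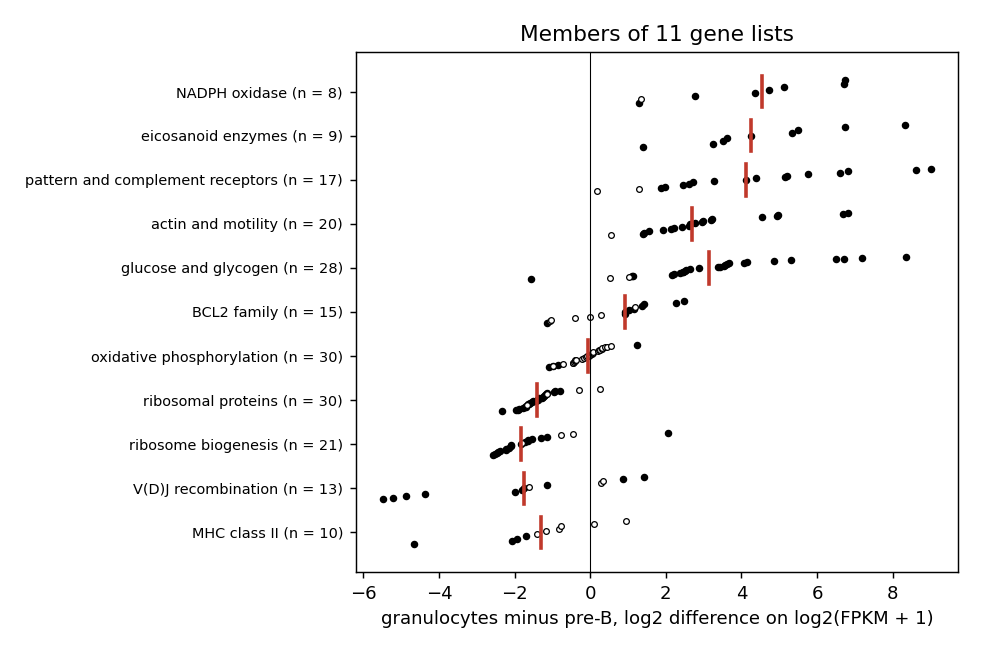
Difference in log2(FPKM + 1) between granulocytes and pre-B cells (x axis) for each tested member of 11 gene lists (y axis); filled points passed a limma adjusted p of 0.05, open points did not, and red bars are medians. Called genes of microbial killing, motility and glucose use lie right of 0 except Pfkm, called ribosome genes lie left except Polr1a, and oxidative phosphorylation is centred at -0.05.

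Of 20 genes of actin dynamics and motility 19 were higher (median 2.70), beside 33.5% over all genes. Actb, beta-actin, stood at 11005 and 10559 FPKM in granulocytes and 1230.4, 1076, 1305 and 1029 FPKM in pre-B cells (log2 difference 3.22, SE 0.22, limma adjusted p = 0.000284). Lcp1, the actin bundler L-plastin, stood at 2465 and 2289 FPKM against 115, 114, 50.05 and 53.7 FPKM (log2 difference 4.93, SE 0.45, limma adjusted p = 0.000768). Of 11 nuclear envelope genes 4 were higher and none lower, with a median of 0.06, a share of higher genes near the 33.5% over all genes. Lbr, the lamin B receptor on which the lobed neutrophil nucleus depends, stood at 524 and 564 FPKM, 207 and 222 FPKM and 119 and 154 FPKM (log2 difference 1.67, SE 0.30, limma adjusted p = 0.00648). Syne1, a nesprin that links nucleus and cytoskeleton, stood at 195 and 216 FPKM against 1.25, 0.820, 2.19 and 1.36 FPKM (log2 difference 6.45, SE 0.25, limma adjusted p = 7.19e-05). Lmna, lamin A/C, was low in both classes, at 0.582 and 0.418 FPKM against 2.92, 1.99, 0.0876 and 0.334 FPKM (log2 difference -0.44, SE 0.61, limma adjusted p = 0.56).

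The apoptosis regulators of the BCL2 family were mixed, with 8 of 15 higher and 1 lower, beside 33.5% and 26.1% over all genes. The count depended on the scale, since 2 were higher and 3 lower under rescaling to the same sum. Mcl1, a survival factor on which neutrophils depend, stood at 564 and 810.1 FPKM in granulocytes and 75.5, 81.7, 189 and 179.8 FPKM in pre-B cells (log2 difference 2.48, SE 0.50, limma adjusted p = 0.00994). Bid, a pro-apoptotic member, stood at 77.8 and 73.8 FPKM against 17.5, 19.6, 10.5 and 13.8 FPKM (log2 difference 2.27, SE 0.27, limma adjusted p = 0.00179). Bax, a pore-forming member, was the one that was lower, at 19.8 and 21.4 FPKM against 42.8, 51.6, 47.5 and 44.3 FPKM (log2 difference -1.14, SE 0.15, limma adjusted p = 0.00233), and its relative Bak1 was higher, at 68.9 and 74.4 FPKM against 36.9, 44.3, 33.3 and 37.3 FPKM (log2 difference 0.91, SE 0.15, limma adjusted p = 0.0053). The direction of Bak1 flips to -0.11 under rescaling to the same sum. Bcl2 was under 3 FPKM in all libraries, at 0.826 and 0.795 FPKM against 2.12, 2.34, 0.468 and 1.12 FPKM.

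Markers of other cells were checked in all 6 libraries. The granulocyte labels held for neutrophil genes, and the granulocyte libraries also carried eosinophil and basophil transcripts. Prg2, an eosinophil granule protein, stood at 93.6 and 253 FPKM in granulocytes and 1.67, 1.70, 0.244 and 1.76 FPKM in pre-B cells (log2 difference 6.12, SE 0.38, limma adjusted p = 0.000233). Mcpt8, a basophil protease, stood at 29.96 and 18.4 FPKM against 0.238, 0.138, 0.0445 and 0 FPKM (log2 difference 4.48, SE 0.21, limma adjusted p = 0.000106). The summed level of 7 eosinophil markers was 128 and 305 FPKM in granulocytes, most of it Prg2, and at most 10.03 FPKM in a pre-B library. For 8 basophil and mast cell markers the summed level was 661 and 434 FPKM against at most 7.07 FPKM. Mcpt8 was a small part of that sum. The differences of these markers had a median of 2.27 and reached 7.71, so the sum was unevenly spread over them. No eosinophil or basophil marker on these lists was listed at 0 in a granulocyte library. Eosinophils and basophils are granulocytes, and their share of each sort was not tested.

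Monocyte markers summed to 479 and 284 FPKM in granulocytes, 114 and 52.9 FPKM in large pre-B cells, and 16.1 and 99.5 FPKM in small pre-B cells. In granulocytes 5 of 11 tested members were called higher, beside 33.5% over all genes. Csf1r, a receptor listed here as a monocyte marker, is also among the receptors of myeloid cytokines above. It stood at 77.2 and 57.8 FPKM in granulocytes and 7.15, 2.75, 0.350 and 0.319 FPKM in pre-B cells (log2 difference 4.64, SE 0.82, limma adjusted p = 0.00644). F13a1, made by monocytes, stood at 29.7 and 8.62 FPKM against 29.9, 10.6, 3.40 and 2.20 FPKM (log2 difference 1.03, SE 0.94, limma adjusted p = 0.379). F13a1 followed the order of Mpo, with the large pre-B libraries level with granulocytes. Erythroid markers, 9 of which were found, summed to 21.7 and 33.6 FPKM in granulocytes, 201 and 165 FPKM in large pre-B cells and 104 and 108 FPKM in small pre-B cells. Most of that sum was Tfrc and Car2, which dividing and other cells also express. Klf1, a defining erythroid factor, stood at 0.213 and 0.907 FPKM, 5.01 and 2.85 FPKM and 0.140 and 0.210 FPKM. The part of other cells in the primary granule and cell cycle results was not tested.

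The difference between granulocytes and pre-B cells was also compared between the genotypes, as a term of the fit. None of 11109 genes was called (0.00%), with 187 at an unadjusted limma p under 0.05. On simulated data with the same layout but no difference between pre-B stages, this test recovered 6% of 2-fold and 76% of 4-fold changes. A change of 2-fold would therefore mostly be missed. In the real data the stage difference is part of the error of this term, with an SE of 1.51 for Ltf and 4.71 for Mpo. The simulated shares do not hold for such genes, and the absence of calls does not exclude 4-fold changes. Mpo, Elane and Prtn3 were each higher in the control than in the CKO library in granulocytes and in large pre-B cells alike.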

How the data were processed

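Libraries of sorted bone marrow populations were aligned and quantified by the authors, and the submitters' processing notes name TopHat2 2.0.8b, Cuffdiff 2.1.1 and mm10. The deposited values, read here as FPKM from their form and the tools named, were used as given. They hold no counts, so the depth of each library is unknown and no counting interval can be given. Each file has 23179 rows. Repeated rows were merged, leaving 22923 symbols, and 1510 genes listed at 0 in only 1 granulocyte library were left out. Genes with at least 1 FPKM in at least 2 of the 6 libraries were tested on log2(FPKM + 1) with limma 3.58.1 in R 4.3.3, with a mean-variance trend and Benjamini-Hochberg adjustment over all genes tested, and called at an adjusted p under 0.05. The pooled comparison used cell class and genotype, with 3 residual degrees of freedom. Comparisons with 1 pre-B stage used population and genotype, with 2. The fits were tested on simulated data, which held no difference between pre-B stages. Genes named as the largest changes are the 12 per direction with at least 10 FPKM in the higher class, and other genes were named from lists. Some genes are not reported here. Members and lists were chosen with earlier results of these data known. Of 531 list entries in 34 lists, 524 were found, some by an older symbol or a RefSeq synonym. Tables were handled in Python 3.11.15 with pandas 2.3.3, and promoter windows came from RefSeq. Alternatives were other pseudocounts, filters, scalings and designs, and leaving out each library.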

Additional observations from a re-analysis of the deposited data

How the results depend on the processing

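Directions were compared for single-gene results called in the main fit or in the alternative. Among these, rescaling to the same FPKM sum was the alternative that reversed directions. It turned the pooled difference to -0.11 for Bak1, -0.74 for Btk, -0.50 for Cd24a, -0.92 for Dyrk1a, -0.98 for E2f2, -0.79 for Ikzf1, -0.77 for Rps9 and -0.85 for Runx1. Against large pre-B cells it gave -0.0802 for Elane, -0.17 for Prtn3 and -0.80 for E2f2, and against small pre-B cells -0.95 for Ctsc and -0.40 for Mki67. The list medians became -0.0204 for the BCL2 family and -0.79 for the nuclear envelope. Calls became 1875 higher and 5507 lower in the pooled comparison, 2816 and 6330 against large, and 2214 and 7122 against small pre-B cells. This follows from the larger FPKM sums of the granulocyte libraries. Leaving out 1 library at a time gave 1532 to 4066 genes higher and 798 to 3296 lower, with the fewest calls when a granulocyte library was left out, where the lone one is assumed to vary like the pre-B libraries. Of 112 single-gene results named, some lost their call without 1 granulocyte library, and none called in either fit changed direction. Sign changes of results called in neither fit were not counted. Scaling by median ratios gave 3628 higher and 2975 lower. A fit of the genotype difference with a term for pre-B stage called 1 gene, where the fit without it called 0. The unknown depth leaves the precision of low FPKM values unstated. Genotype, which marks the shared pool, was the block that pairs the libraries, and without it 3915 genes were higher and 3142 lower. The labels give no replicate numbers for any further pairing.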

Other observations

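The gene called for a genotype difference with a term for pre-B stage was Pfas, a purine synthesis enzyme. It stood at 4.10 and 934 FPKM in granulocytes, 13.5 and 15.1 FPKM in large and 7.16 and 9.63 FPKM in small pre-B cells, so the CKO granulocyte library alone was high (log2 difference 7.25, SE 0.22, limma adjusted p = 0.0279). It was chosen after its values were seen and rests on 1 library.

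Erg, in the list of B-lineage factors, had pre-B values that split by genotype, with 17.2 and 53.7 FPKM in large and 15.3 and 59.5 FPKM in small pre-B cells, both CKO values above both controls, while granulocytes stood at 42.6 and 46.5 FPKM. Serpinb10, a serpin in the primary granule list whose values are those listed for Serpinb10-ps, stood at 30.4 and 4.11 FPKM in granulocytes. These genes were chosen after their values were seen, and the genotype difference did not pass for either of them.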
